A study of Mus musculus with 4 samples.

Results

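Leukocyte adhesion molecules are the surface proteins with which blood cells hold on to vessel walls, to matrix and to each other. The 9 genes described here were taken by symbol from a list of such molecules: the ligands Icam1, Vcam1 and Pecam1, the integrin chains Itgal, Itgam, Itgb2 and Itga4, and the rolling ligands Selplg and Cd44. All 9 were present among the 32285 genes of the count matrices. Their transcripts were measured by droplet-based single-cell RNA sequencing of leukocytes from CT26 tumours, a colon carcinoma line that grows in Balb/c mice. The study treated tumour-bearing mice with liproxstatin-1, a small molecule that traps lipid radicals and so blocks ferroptosis, the iron-dependent death of cells by lipid peroxidation. Its title places that death in tumour neutrophils, which are therefore described before the other classes. The control group had 2 libraries from 9-week-old Balb/c mice labelled control, with no vehicle named. The liproxstatin group had 2 libraries from 9-week-old Balb/c mice given the inhibitor for 8 days. In all 4 libraries the cells were taken by positive selection with beads against CD45, the pan-leukocyte antigen, so the endothelial side of adhesion was not sampled. The labels do not say how many mice stand behind a library, so p-values measure the spread between these libraries.

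Leukocytes leave the blood in steps. They roll on selectins through carbohydrate carried by PSGL-1, the product of Selplg, and by CD44, the hyaluronan receptor that Cd44 encodes. They then arrest through integrins: the alpha chains of Itgal and Itgam pair with the common beta chain of Itgb2 to bind ICAM-1, and the alpha chain of Itga4 binds VCAM-1. PECAM-1 binds itself at cell junctions during passage through the vessel wall. ICAM-1 is best known from inflamed endothelium, but activated leukocytes carry it too.

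The matrices held 29092 cell barcodes, of which 25730 were kept, and between 83129874 and 168597163 UMIs (unique molecular identifiers, 1 per captured transcript) per library. Immune classes were named from marker genes after clustering without the 9 members, and 7 of the named classes were compared between the groups: neutrophils, monocytes, macrophages, dendritic cells, CD8 T cells, regulatory T cells and NK cells. The neutrophils numbered 98 and 442 in the controls, against 583 and 392 after liproxstatin, with medians of 3675, 3677, 3443 and 2755 UMIs per cell. All 12 neutrophil markers were detected in each library, with S100a9, S100a8, G0s2 and Hdc leading the cluster. Clusters that could not be named took 17.4% and 7.18% of immune cells in control and 7.12% and 2.04% in liproxstatin tumours. Of the clusters that were named, a monocyte cluster was led by interferon-induced genes such as Rsad2 and Ifit3, and macrophage, CD8 T and NK clusters by histone and cell cycle genes. Any pair of libraries shared between 3 and 17 barcodes. Levels below are in CPM, which is a share of all UMIs of the class in that library, scaled to 1e+06 UMIs, and a change as the log2 fold change of liproxstatin over control ± its standard error from edgeR's quasi-likelihood test with Benjamini-Hochberg adjustment over all genes tested in the class.

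Icam1 was the member that changed in neutrophils, and it rose. Icam1 (ENSMUSG00000037405, chromosome 9, 21015985 to 21028817, plus strand, GRCm38) encodes the ligand of the beta-2 integrins. Its level was 34.3 and 19.96 CPM in the controls, against 80.6 and 98.0 CPM after liproxstatin. Both liproxstatin libraries thus lay above both controls, and the group means were 27.2 ± 10.2 and 89.3 ± 12.3 CPM (SD, n = 2 each), a ratio of 3.29. The log2 fold change was 1.89 ± 0.30 (adjusted p = 0.0118, edgeR). Of the 8 members tested in neutrophils, 1 rose and 0 fell, while 7 of 5837 genes (0.120%) rose and 6 fell, 0.223% in either direction, with 477 at an unadjusted p under 0.05. The call rested on few molecules, 12 and 34 UMIs against 165 and 107, and it ended without control replicate 2 (1.35, adjusted p = 0.0528, edgeR) or with DESeq2 (1.87, adjusted p = 0.135). It also ended with 98 cells drawn from every library, where 2 draws gave 1.81 (adjusted p = 0.751, edgeR) and 1.13 (adjusted p = 0.442). With the replicate number as a block the call ended as well, though the numbers were not taken as pairs.

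**Figure D1:**
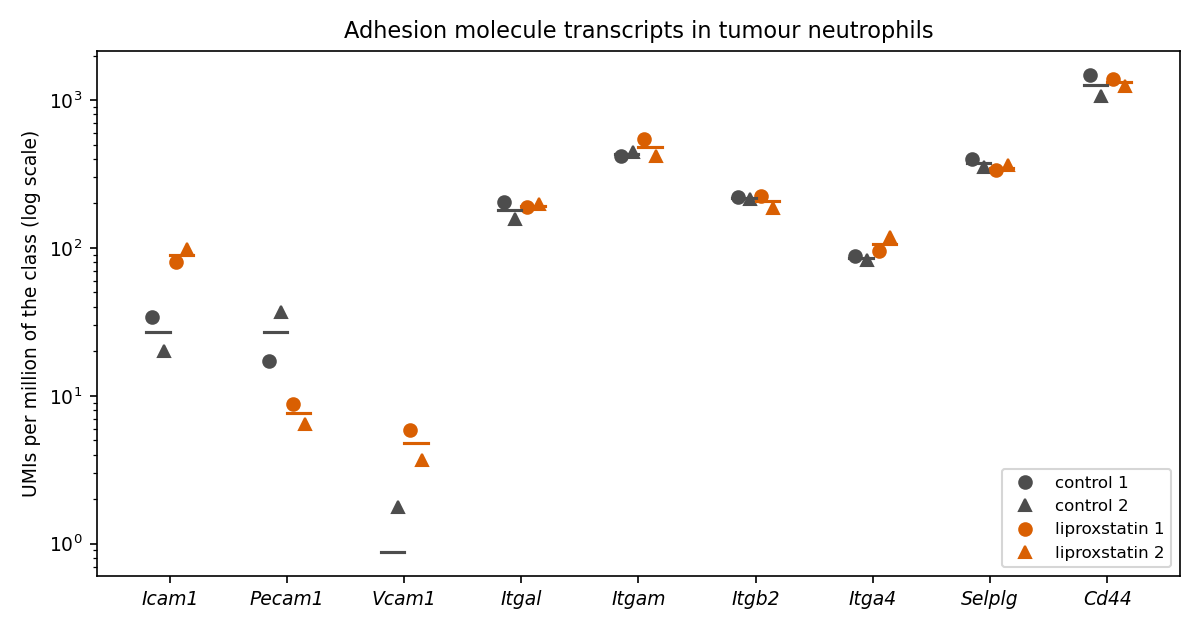
Level of each of the 9 members in neutrophils, in UMIs scaled to 1e+06 UMIs of the class on a log axis. Points are libraries and lines are group means of 2 libraries; the control 1 value of Vcam1 is 0 and cannot be drawn. Icam1 is higher in both liproxstatin libraries (80.6 and 98.0) than in both controls (34.3 and 19.96), Pecam1 is lower in both, and the groups overlap for Itgal, Itgam, Itgb2, Selplg and Cd44.

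The sequence before the start of Icam1 is shown because it is the member that changed and because ICAM1 promoters are known to carry elements for NF-kappaB. The 250 bases before its RefSeq start (chr9:21015690-21015939, plus strand, build GRCm38.p6) read as follows, with the match to the motif searched in capitals.
Icam1: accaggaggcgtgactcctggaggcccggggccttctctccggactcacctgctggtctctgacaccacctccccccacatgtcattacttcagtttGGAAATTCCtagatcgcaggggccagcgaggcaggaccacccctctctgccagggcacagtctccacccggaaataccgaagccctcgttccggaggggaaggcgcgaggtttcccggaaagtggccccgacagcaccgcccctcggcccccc
The capitals match GGAATTTCC, a kappa-B element, on the reverse strand, 153 to 145 bases before the start (chr9:21015787-21015795). The motif was searched on both strands, in this spelling alone, with such elements already known from ICAM1 promoters. The share that follows is thus a background and not a test. Among 27025 mouse promoters of this length, 79 (0.292%) held these letters. RefSeq sequences were matched for 4 of the 9 members, and those of Itgam, Itga4 and Cd44 did not hold them in this window. A match is a description of the letters and not of binding.

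Icam1 transcripts were spread over more neutrophils in the treated libraries. Icam1 UMIs were found in 7 of 98 and 20 of 442 control neutrophils and in 70 of 583 and 45 of 392 from liproxstatin tumours. Cells with a UMI held on average 1.71 and 1.70 against 2.36 and 2.38 UMIs. With each cell thinned to 2000 UMIs, which left out 9, 24, 65 and 63 shallower cells, the share with an Icam1 UMI was 5.62% and 2.87% in control against 8.49% and 10.3% in liproxstatin libraries, so the groups did not overlap at equal depth either. The classes have no cell type that surely lacks Icam1, so free RNA was gauged from C1qa, C1qb and C1qc, macrophage genes: at their ratio in neutrophils (5.11% to 5.97% of the library's level) it could give 2.65 to 2.82 CPM of Icam1.

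Pecam1 had the lowest log2 fold change of the members in neutrophils but did not pass the test. Pecam1 (ENSMUSG00000020717, chromosome 11, 106654217 to 106750628, minus strand) encodes the junctional adhesion protein CD31. Neutrophils had 17.2 and 37.0 CPM in control against 8.79 and 6.41 CPM in liproxstatin libraries, so both control libraries lay above both treated ones. These levels are 6 and 63 against 18 and 7 UMIs, and 43 of the 63 came from 1 group of cells in control replicate 2 described below. The log2 fold change was -1.996 ± 0.41 (adjusted p = 0.0683, edgeR). It passed with no filter on low counts (-1.94, adjusted p = 0.00315, edgeR). It was -2.19 without control replicate 1 and -1.11 without control replicate 2. Those fits leave only 1 control and lend no weight to a call. PECAM-1 is also abundant on endothelium and platelets. Endothelial markers were near the floor here: 5 to 7 of 8 were at 0 in each library, Cdh5 in all 4, with a summed level of 1.46 to 2.94 CPM. Of the platelet list, Gp9, Gp1bb, Gp6 and Gp5 were at 0 in all 4 libraries. The levels of its other genes, Treml1, Ppbp and Pf4, are not given here. Pf4 was among the leading genes of macrophage clusters under other clustering settings, so it does not mark platelets alone in these data.

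Vcam1 was not measurable as a neutrophil transcript. Vcam1 (ENSMUSG00000027962, chromosome 3, 116109949 to 116129688, minus strand) encodes the ligand of the Itga4 integrin. The 4 neutrophil sums held 0 and 3 UMIs in control against 12 and 4 in liproxstatin libraries, too few for the filter on low counts. Free RNA at the C1q ratio could give 3.14 and 2.24 CPM in control against 4.78 and 3.24 CPM in liproxstatin libraries, beside the 0, 1.76, 5.86 and 3.66 CPM observed. These counts were read as background.

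Of the integrin chains of neutrophils, Itgal, Itgam and Itgb2 differed by less than the spread between libraries. Itgal (ENSMUSG00000030830, chromosome 7, 127296260 to 127335138) and Itgam (ENSMUSG00000030786, chromosome 7, 128062640 to 128118491) encode the alpha chains of LFA-1 and Mac-1 and lie 727502 bases apart, both on the plus strand. Itgal was at 206 and 157 CPM in control against 189 and 197 CPM in liproxstatin neutrophils (log2 fold change 0.11 ± 0.21), and the groups overlapped. Itgam was at 418 and 446 against 544 and 417 CPM (0.14 ± 0.21), with liproxstatin replicate 1 the highest and replicate 2 the lowest library. Itgb2 (ENSMUSG00000000290, chromosome 10, 77530252 to 77565708, plus strand), their common beta chain, was at 220 and 216 against 226 and 188 CPM (-0.08 ± 0.21). The groups overlapped for both. Of the UMIs of both alpha chains, Itgam had 67.0% and 73.9% in control against 74.2% and 67.9% in liproxstatin libraries, the same range.

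Itga4 (ENSMUSG00000027009, chromosome 2, 79255426 to 79333123, plus strand), the alpha chain of VLA-4, was at 88.7 and 82.8 CPM in control against 95.2 and 118 CPM in liproxstatin neutrophils. The libraries did not overlap, but the log2 fold change of 0.30 ± 0.23 did not pass (adjusted p = 0.827, edgeR). Absence of overlap is common with 2 libraries a group: Icam1, Itga4 and Pecam1 were 3 of the 8 members tested, beside 35.6% of all genes tested in neutrophils.

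The rolling ligands did not differ either. Selplg (ENSMUSG00000048163, chromosome 5, 113818536 to 113832644, minus strand), the selectin ligand, was at 401 and 354 CPM in control against 334 and 363 CPM in liproxstatin neutrophils (-0.12 ± 0.20), with overlap. Cd44 (ENSMUSG00000005087, chromosome 2, 102811141 to 102901665, minus strand) was at 1488 and 1059 against 1392 and 1249 CPM (0.05 ± 0.21), and both treated libraries lay between the controls. The median log2 fold change was 0.08 over the 8 members tested and -0.01 over all genes.

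Neutrophils were also split among themselves, on 1000 variable genes without the members, into 4 clusters that differed widely in adhesion transcripts. Cluster n1 (504 cells) was led by Hp, Lrg1 and Pglyrp1, which encode granule and acute phase proteins, and had Selplg among its leading genes. Cluster n2 (450 cells) was led by Hspa1b, Plaur and Ccl3. Cluster n3 (294 cells) was led by the interferon-induced genes Ifi47, Rsad2, Gbp5 and Irgm1, and cluster n4 (267 cells) by Hilpda, Ero1l and P4ha1, genes induced by low oxygen. The levels by cluster are a description, since the clusters were drawn from the same cells.

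Icam1 was highest in the interferon-led cluster n3 and higher with liproxstatin in all 4 clusters. In n3 it was at 113 and 56.2 CPM in control against 197 and 238 CPM in liproxstatin libraries. In n1 it was at 13.7 and 11.3 against 65.1 and 36.4 CPM, and in n2 at 0 and 17.0 against 40.5 and 76.3 CPM. In n4 it was at 24.4 and 13.7 against 31.2 and 67.4 CPM, so control and treated libraries did not overlap in any of the 4. The control levels rest on 2 and 6 UMIs in n1, 0 and 7 in n2 and 1 and 7 in n4. Control replicate 1 had only 12 cells in n4. Absence of overlap was not counted over all genes within a cluster, and it was 35.6% in neutrophils as a whole. Cluster n3 held 75.0% and 41.2% of the control Icam1 UMIs and 52.1% and 57.0% of those with liproxstatin, from 23.5% and 13.1% against 20.8% and 23.5% of the cells. With the 4 clusters weighted equally, Icam1 was at 37.6 and 24.5 CPM in control against 83.3 and 105 CPM in liproxstatin libraries. The call ended without n3 (1.92 ± 0.36, adjusted p = 0.0703, edgeR), and without n4 the log2 fold change was 1.84 ± 0.30 (adjusted p = 0.00854).

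Pecam1 was highest in the low-oxygen cluster n4, at 73.1 and 84.3 CPM in control against 26.7 and 20.2 CPM in liproxstatin libraries. In n2 it was at 24.3 and 26.7 against 6.75 and 14.5 CPM, again without overlap. These levels rest on 3 and 43 against 6 and 3 UMIs in n4, and on 2 and 11 against 5 and 4 in n2. Control replicate 1 had only 12 cells in n4. Absence of overlap was not counted over all genes within a cluster. In n1 and n3 the groups overlapped, with at most 7 UMIs in a library. Cluster n4 made up 29.9% of neutrophils in control replicate 2 and 12.2%, 11.3% and 14.5% in the other libraries. With the clusters weighted equally Pecam1 was at 26.1 and 35.7 CPM in control against 11.5 and 8.68 CPM in liproxstatin libraries. Without n4 the log2 fold change in neutrophils was -1.37 ± 0.55 (adjusted p = 0.473, edgeR).

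**Figure D2:**
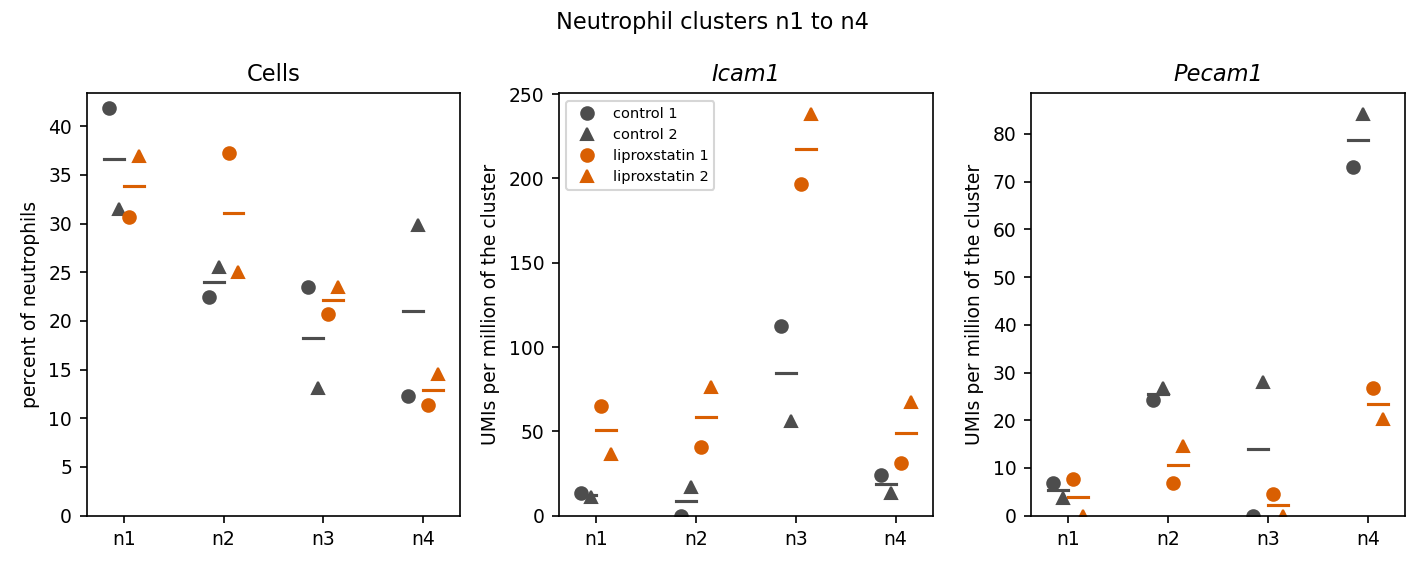
The 4 neutrophil clusters: percent of each library's neutrophils (left) and levels of Icam1 (middle) and Pecam1 (right) in UMIs scaled to 1e+06 UMIs of the cluster. Points are libraries and lines are means of 2 libraries. Icam1 is highest in n3 and Pecam1 in n4, and control replicate 2 has the largest share of n4 cells (29.9%).

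The same clusters ordered the other members. In n1 Selplg was at 561 to 791 CPM, Itgal at 315 to 384 CPM, Itgb2 at 310 to 427 CPM and Itga4 at 137 to 238 CPM over the 4 libraries. In n4 Selplg was at 23.5 to 58.0 CPM, Itgal at 7.84 to 31.2 CPM, Itgb2 at 24.4 to 87.6 CPM and Itga4 at 0 to 13.5 CPM. None of these ranges overlapped between n1 and n4. Itgam and Cd44 were less uneven: Itgam was at 424 to 519 CPM in n1 and 244 to 459 CPM in n4, and Cd44 at 853 to 1284 and 849 to 1096 CPM. Cluster n4 thus held Cd44 and Itgam transcripts with few of the other integrin chains or of Selplg.

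Outside neutrophils, 0 of the members passed in any of the other 6 classes. The share of all genes called there was 0.496% in monocytes, 2.54% in macrophages, 0.131% in dendritic cells, 1.14% in CD8 T cells, 0.143% in regulatory T cells and 0.140% in NK cells. At an unadjusted p under 0.05 stood 3 members in macrophages (Itgal, Cd44 and Itgb2), beside 2310 of all 14386 genes tested there. In monocytes it was 2 members (Cd44 and Itgal) beside 1184 of 11685 genes, in NK cells 2 (Icam1 and Cd44) beside 816 of 10698, and in CD8 T cells 1 (Cd44) beside 1238 of 11611. In dendritic cells it was 0 beside 727 of 9886 genes and in regulatory T cells 0 beside 498 of 7717. DESeq2 called 0 members in each of the 6 classes.

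Icam1 passed in no other class. In NK cells it was at 75.6 and 88.9 CPM in control against 53.2 and 63.0 CPM in liproxstatin libraries, lower in both treated libraries (-0.48 ± 0.13, adjusted p = 0.315, edgeR). That difference passed with no filter on low counts (-0.47, adjusted p = 0.0255, edgeR). Without control replicate 1 it was -0.58, in a fit that leaves only 1 control and lends no weight to a call. In monocytes Icam1 was at 65.2 and 60.9 against 66.2 and 74.6 CPM (0.22 ± 0.11), higher in both treated libraries as in neutrophils. In macrophages it was at 51.4 and 44.9 against 50.9 and 49.9 CPM (0.11 ± 0.09), with overlap. Regulatory T cells had 99.1 and 60.7 against 117 and 98.2 CPM (0.46 ± 0.24), with overlap. Dendritic cells (0.26 ± 0.16) and CD8 T cells (0.02 ± 0.24) overlapped as well.

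Whether neutrophils responded differently was tested directly. The log2 fold change of Icam1 in neutrophils exceeded that in mononuclear phagocytes (monocytes and macrophages summed, library as a block) by 1.83 ± 0.37 (adjusted p = 0.00186, edgeR). It was 1 of 2 genes with a higher response in neutrophils out of 13629 tested (0.0147%), with 6 lower, 0.0587% in either direction. It did not pass when control replicate 2, liproxstatin replicate 1 or liproxstatin replicate 2 was left out (1.68, 1.84 and 1.79). Nor did it pass with equal cells per library (1.71, adjusted p = 0.139, edgeR). Without control replicate 2 the median difference over all genes was 0.49, against 0.04 with all libraries, so genes at large were shifted upward in that fit. Against NK cells, a comparison added after the NK values were seen, the difference was 2.47 ± 0.31 for Icam1 (adjusted p = 1.63e-11, edgeR) and -1.88 ± 0.40 for Pecam1 (adjusted p = 0.00291), 2 of the 0.301% of genes called. Neither passed without liproxstatin replicate 1 (2.38 and -2.21), and Pecam1 also failed without liproxstatin replicate 2 (-1.55) or control replicate 2 (-0.78). In the fit against NK cells without control replicate 2 the median over all genes was 0.60, against -0.03 with all libraries. In both comparisons the p-values with all libraries follow a normal curve. The spread behind them was thus pooled over genes, and each gene's own spread between libraries added little.

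**Figure D3:**
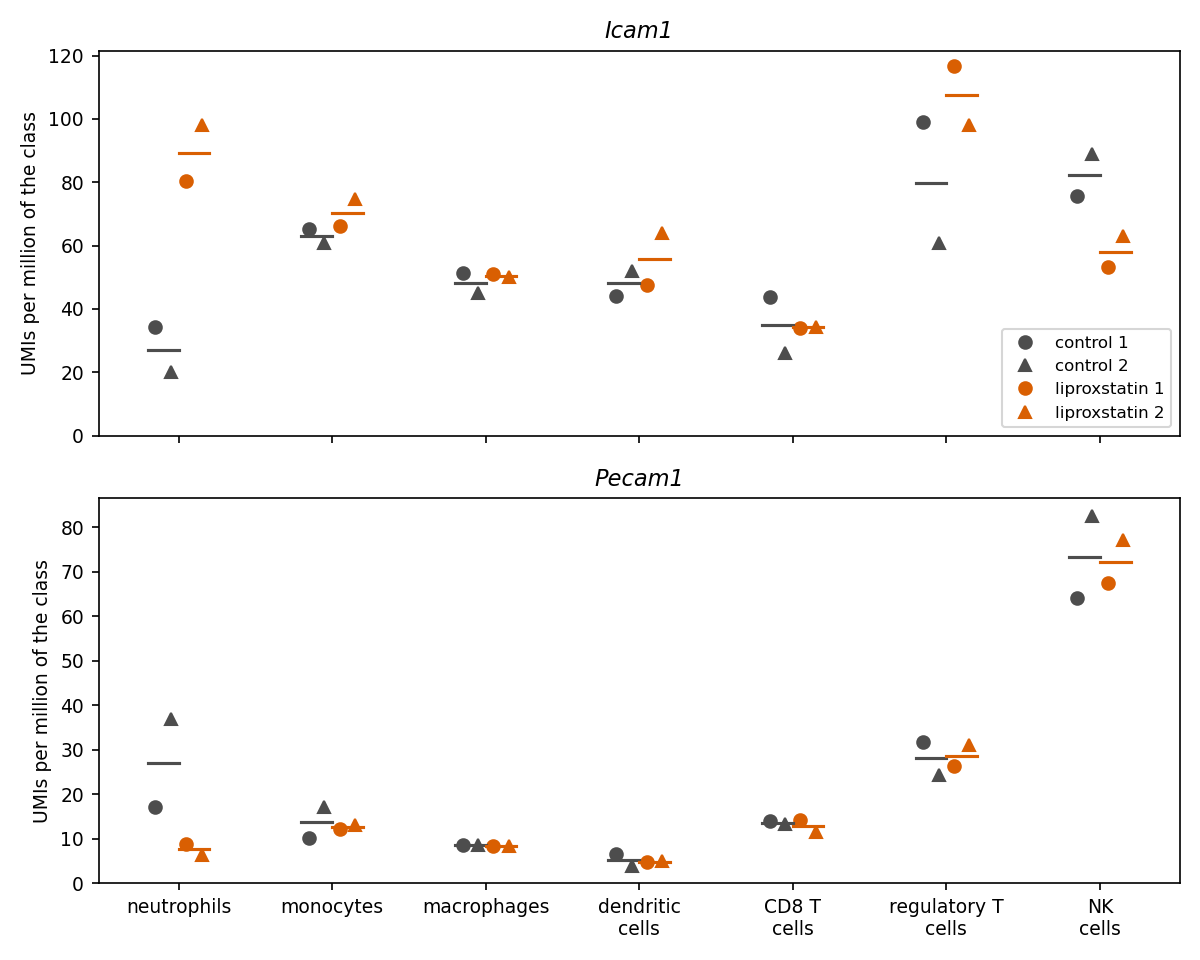
Icam1 (top) and Pecam1 (bottom) in 7 immune classes, in UMIs scaled to 1e+06 UMIs of the class. Points are libraries and lines are means of 2 libraries. Icam1 is higher with liproxstatin in neutrophils and lower in NK cells (53.2 and 63.0 against 75.6 and 88.9); Pecam1 is highest in NK cells.

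Among the classes compared between the groups, Vcam1 was a macrophage and monocyte transcript, and it varied from library to library. Cells named non-immune, which were not tested, had a higher mean, 168 CPM against 86.3 CPM in macrophages. The libraries overlapped, with 127 to 260 CPM in non-immune cells and 47.7 to 129 CPM in macrophages. Macrophages had 80.1 and 47.7 CPM in control against 129 and 88.8 CPM in liproxstatin libraries (0.81 ± 0.43, adjusted p = 0.525, edgeR). Monocytes had 26.2 and 9.71 against 36.7 and 28.03 CPM (0.93 ± 0.68, adjusted p = 0.796). In both classes the treated libraries lay above the controls, with control replicate 2 the lowest. The macrophage difference passed with control replicate 1 left out (1.25) and with control replicate 2 left out (0.45). The monocyte difference passed without control replicate 1 (1.84). Only 1 control is left in these fits, so they do not measure the spread between controls and lend no weight to a call. Dendritic cells had 2.08 to 8.30 CPM (-0.18 ± 0.54), and T and NK cells had at most 3.78 CPM, near what free RNA could give.

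Cd44 had its smallest p in CD8 T cells, with 76.5 and 69.9 CPM in control against 115 and 87.4 CPM in liproxstatin libraries (0.47 ± 0.13, adjusted p = 0.072, edgeR). On CD8 T cells CD44 is the classical mark of antigen experience. The difference passed with no filter (0.48, adjusted p = 0.0064, edgeR). It was 0.54 without control replicate 1 and 0.63 without liproxstatin replicate 2. Those fits leave 1 library in a group and lend no weight to a call. Cd44 was also higher in both treated libraries of NK cells, with 54.7 and 51.3 against 64.1 and 65.2 CPM (0.32 ± 0.12, adjusted p = 0.566). In macrophages it was at 161 and 172 against 222 and 174 CPM (0.29 ± 0.10, adjusted p = 0.193). In monocytes the groups overlapped at 351 and 388 against 508 and 374 CPM (0.32 ± 0.13, adjusted p = 0.45).

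Selplg was lower in both treated libraries in 4 of 7 classes, and in none did it pass. Its log2 fold change was -0.08 ± 0.11 in monocytes, -0.14 ± 0.08 in macrophages, -0.20 ± 0.10 in dendritic cells and -0.31 ± 0.16 in regulatory T cells. In dendritic cells, for example, it was at 216 and 207 CPM in control against 185 and 172 CPM in liproxstatin libraries. CD8 T cells (0.03 ± 0.11) and NK cells (0.15 ± 0.11) showed no such direction. Absence of overlap in either direction is read against all genes. It was 40.9% in monocytes, 48.2% in macrophages, 38.4% in dendritic cells, 40.8% in CD8 T cells, 36.2% in regulatory T cells and 37.6% in NK cells. Lower in both treated libraries, as Selplg was, were 3363 of 11685 genes in monocytes and 4499 of 14386 in macrophages. In dendritic cells it was 2338 of 9886 genes and in regulatory T cells 1350 of 7717.

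The integrin chains of macrophages all had log2 fold changes above 0: Itgal 0.24 ± 0.08, Itgb2 0.21 ± 0.09, Itgam 0.19 ± 0.09 and Itga4 0.18 ± 0.09. Itgal was at 35.5 and 33.1 CPM in control against 39.5 and 39.0 CPM in liproxstatin macrophages, without overlap. Itgb2 was at 180 and 201 against 229 and 199 CPM, with overlap. None of the 4 passed (adjusted p = 0.183 to 0.33, edgeR), and the median over the 9 members in macrophages was 0.19 beside 0.00 over all genes tested. In the remaining classes the log2 fold changes of these 4 chains lay between -0.19 and 0.30, apart from Itgam in regulatory T cells (0.95 ± 0.48, from 3 and 8 against 19 and 21 UMIs). There and in CD8 T cells Itgam was near the level free RNA could give, which was 50.6% to 181% of what was observed.

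**Figure D4:**
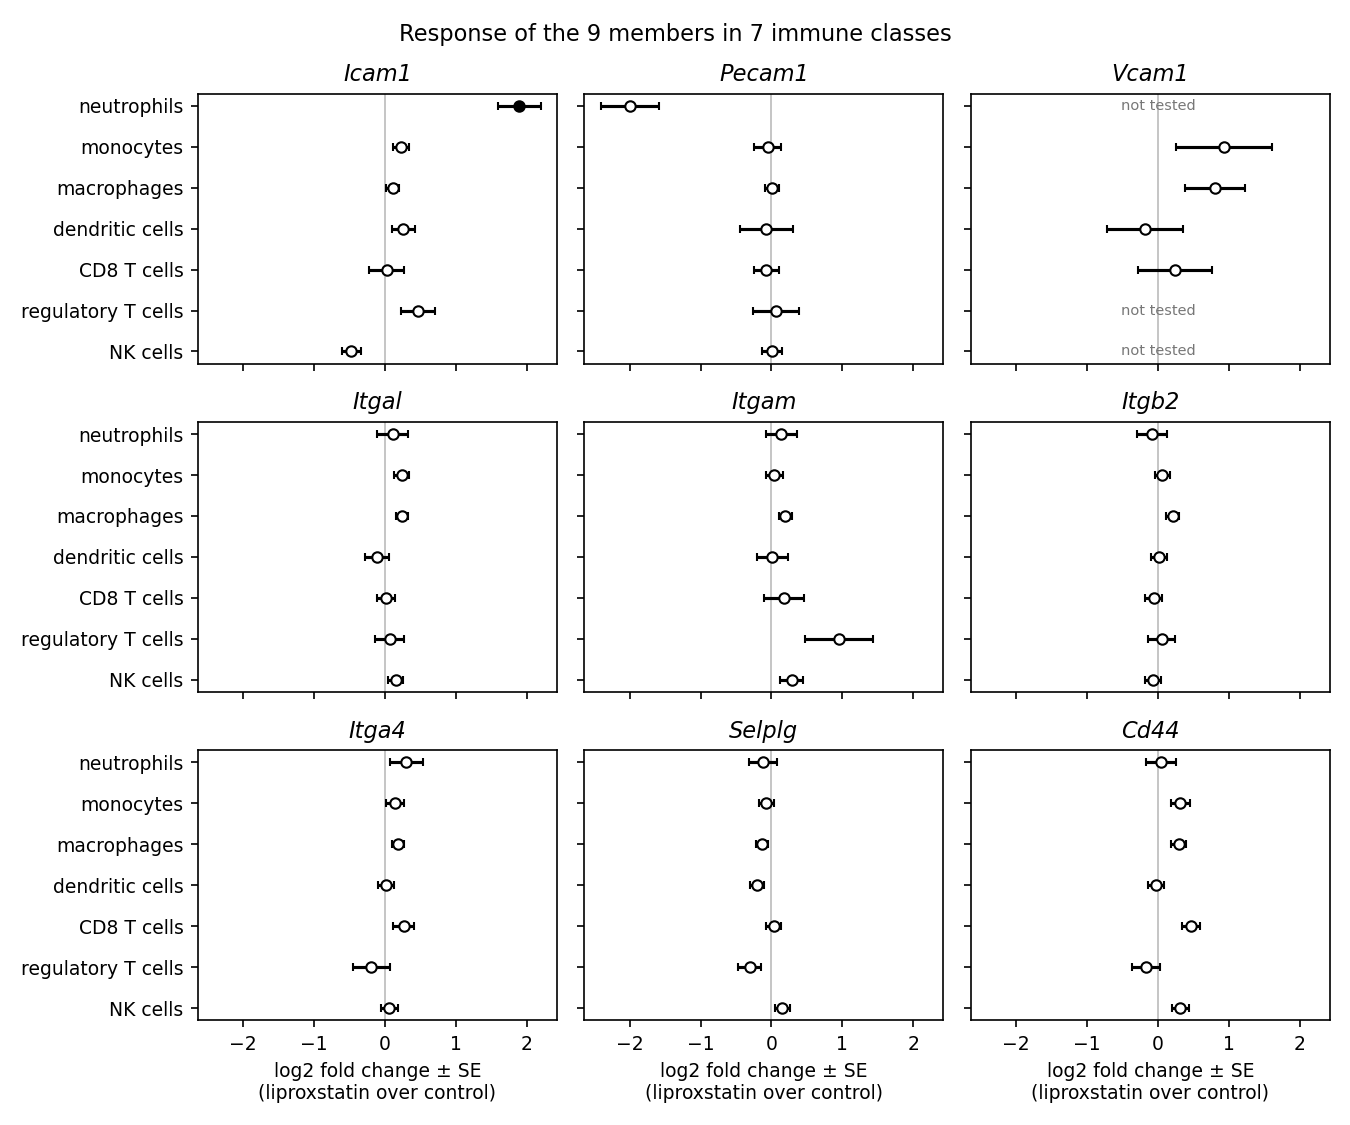
Log2 fold change of liproxstatin over control with its standard error for each member in 7 classes (edgeR, 2 libraries a group). Filled points passed at an adjusted p under 0.05 and open points did not; "not tested" marks sums too low for the filter. The only filled point is Icam1 in neutrophils at 1.89, and Pecam1 in neutrophils lies at -1.996.

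The classes themselves differed in their levels of adhesion transcripts. Cd44 was highest in neutrophils, at 1297 ± 187 CPM (SD, n = 4), 3.20 times the level in monocytes (405 ± 70.2), and no neutrophil library overlapped any monocyte library. Below these came macrophages (182 ± 27.3) and regulatory T cells (167 ± 24.5), which overlapped, then dendritic cells (121 ± 7.85) and CD8 T cells (87.1 ± 19.7), which also overlapped, and NK cells (58.8 ± 6.89). Itgam was alike in monocytes (490 ± 54.4), neutrophils (456 ± 60.4) and macrophages (455 ± 36.2), which overlapped. It was 4.69 times lower in dendritic cells (97.0 ± 19.7) than in macrophages, and NK cells followed at 20.3 ± 2.17.

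Itgb2 was highest in monocytes (335 ± 21.8 CPM), 1.58 times the level in neutrophils (212 ± 16.9), which overlapped with dendritic cells and these with macrophages. CD8 T cells (155 ± 14.4), regulatory T cells (143 ± 16.4) and NK cells (137 ± 10.6) formed an overlapping lower group. Itgal had another order, with NK cells first (228 ± 13.2), then neutrophils (187 ± 21.1) and CD8 T cells (163 ± 21.4), which overlapped, and macrophages (36.8 ± 3.06) and dendritic cells (29.9 ± 3.63) last. Itga4 lay between 95.6 and 125 CPM in CD8 T cells, monocytes, NK cells, neutrophils and dendritic cells, each overlapping its neighbour, with regulatory T cells (72.1 ± 14.0) and macrophages (40.3 ± 3.21) below.

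Selplg was highest in NK cells (404 ± 35.2 CPM) and neutrophils (363 ± 27.8), which overlapped, then in CD8 T cells (285 ± 10.2), and lowest in macrophages (80.8 ± 6.39). Among the classes that were not tested, plasmacytoid dendritic cells had a higher Selplg mean, 745 CPM in control and 772 CPM in liproxstatin libraries. Pecam1 was highest in NK cells (72.8 ± 8.53), 2.57 times the level in regulatory T cells (28.3 ± 3.63), and plasmacytoid dendritic cells had 84.3 and 79.1 CPM. Neutrophils came next at 17.3 ± 13.9 CPM. Icam1 ranged from 34.5 ± 7.19 CPM in CD8 T cells to 93.7 ± 23.6 CPM in regulatory T cells, with overlap between neighbours except macrophages and CD8 T cells. Control neutrophils, at 27.2 CPM, lay below the mean of every other class tested, and liproxstatin neutrophils, at 89.3 CPM, below regulatory T cells only.

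Genes outside the list that followed a member most closely over the 28 class and library sums are given as a description, since the points share libraries and classes. Itgam ran closest to Fcgr3 (Pearson r = 0.99), Hk3 (0.98) and Dok3 (0.98), and Cd44 to Slc16a3 (0.97), Xylt1 (0.97) and Slc2a1 (0.96). Vcam1 ran closest to Siglec1 (0.95), Sash1 (0.93) and Prxl2b (0.93), Selplg to Rgs3 (0.94), Nbeal2 (0.93) and Gfod1 (0.93), and Itgal to Stk26 (0.94), Hsd11b1 (0.92) and Jak1 (0.91). Itgb2 was nearest to Sap30 (0.90), Gngt2 (0.90) and Adssl1 (0.89), and Pecam1 to the NK genes Gzma (0.85) and Ncr1 (0.83) with Dab2ip (0.84). The likeness was weaker for Icam1, with Katna1 (0.77), Tnip1 (0.71) and Clec2d (0.69), and for Itga4, with Glipr2 (0.73), Slc44a2 (0.73) and Prdx6 (0.69). Of all member pairs, Itgam and Itgb2 were the most alike (0.79) and Vcam1 and Selplg the most opposed (-0.91).

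A wider set of 72 adhesion genes gave the setting: other ligands, other integrin subunits, integrin activators, enzymes that build selectin ligands, junction genes and sheddases. In neutrophils 43 of them were tested, 0 rose and 0 fell, beside 0.223% of all genes called there, and the median log2 fold change was 0.02. The 3 smallest p, picked out after the values were seen, belonged to Itgav, the alpha-V chain (-1.03 ± 0.31, adjusted p = 0.284, edgeR), Ezr, which encodes the membrane linker ezrin (0.71 ± 0.22, adjusted p = 0.294), and St3gal6, a sialyltransferase of selectin ligands (0.65 ± 0.21, adjusted p = 0.327). At an unadjusted p under 0.05 stood 5 of the 43, beside 477 of all 5837 genes tested in neutrophils.

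In the other classes some of these genes changed where the 9 members did not. Itgav rose in CD8 T cells from 151 and 119 to 279 and 225 CPM (0.90 ± 0.13, adjusted p = 9.5e-04, edgeR), and in regulatory T cells from 179 and 101 to 427 and 326 CPM (1.45 ± 0.24, adjusted p = 0.0374). In macrophages Itgav (0.53 ± 0.11, adjusted p = 0.0391) and Itgax (0.62 ± 0.13, adjusted p = 0.0389) rose too, both named here after their values were seen. Cytip, which binds cytohesin and restrains LFA-1 adhesion, rose in macrophages from 19.9 and 20.2 to 35.3 and 31.6 CPM (0.78 ± 0.09, adjusted p = 0.00121) and in CD8 T cells (0.63 ± 0.12, adjusted p = 0.00472). Mmp9, a gelatinase, fell in macrophages from 13.2 and 16.3 to 6.05 and 6.86 CPM (-1.15 ± 0.12, adjusted p = 0.0012), where Ezr rose (0.40 ± 0.09, adjusted p = 0.0389). In monocytes the PECAM-1 partner Cd177 (0.81 ± 0.15, adjusted p = 0.0294) and F11r, which encodes junctional adhesion molecule A (1.16 ± 0.22, adjusted p = 0.0346), rose. In all, 4 rose and 1 fell of 64 tested in macrophages, beside 2.54% of all genes called there. In CD8 T cells 2 rose and 1 fell of 53 (all genes 1.14%), and in monocytes 2 rose of 56 (0.496%). In regulatory T cells 1 rose of 40 (0.143%). In dendritic cells 0 passed of 51 (0.131%) and in NK cells 0 of 49 (0.140%). In the comparison of neutrophils with mononuclear phagocytes 1 of 64 passed, beside 0.0587% of all genes. It was Thbs1, which encodes the matrix protein thrombospondin, with a lower response in neutrophils (-1.93 ± 0.31, adjusted p = 7.84e-06, edgeR). The wider-list calls were not followed under the other settings. The mix of clusters in macrophages also differed between the groups. The largest cluster held 360 and 530 of 1423 and 2898 control cells, against 1135 and 1234 of 3181 and 3573 treated cells. With equal cells per cluster 51 genes rose and 10 fell in macrophages, against 149 and 99 with equal cells per library. The part of this mix in the changes above was not tested.

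**Figure D5:**
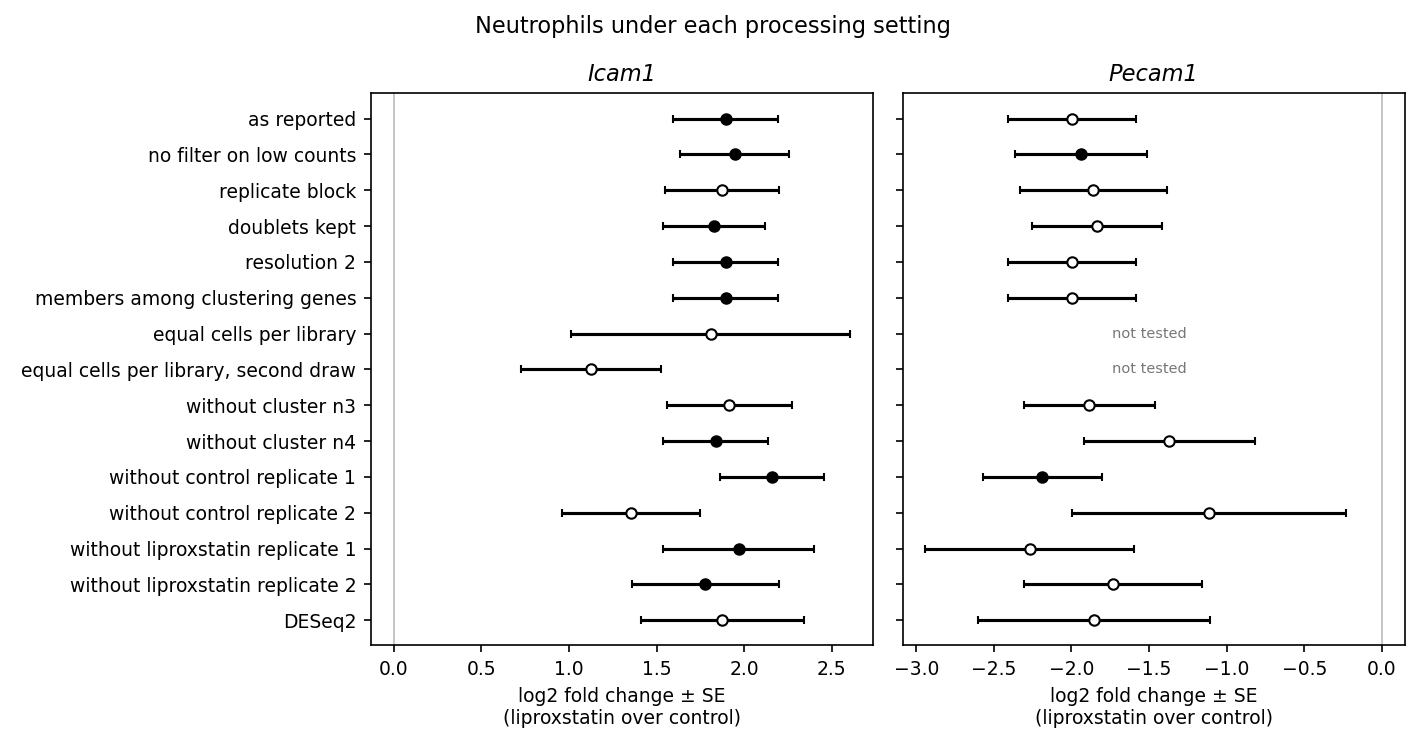
Log2 fold change of Icam1 (left) and Pecam1 (right) in neutrophils, with its standard error, as reported and under each other processing setting. Filled points passed at an adjusted p under 0.05 and open points did not; Pecam1 was too low to test with equal cells per library. Icam1 stays between 1.13 and 2.16 and Pecam1 between -2.27 and -1.11 in every setting shown.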

How the data were processed

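The deposited files hold raw UMI counts per gene and cell barcode, made with Cell Ranger (version 4 per the submitters' processing notes, while the file headers name 6.1.1) on mm10. Cells with at least 200 genes and at most 15% mitochondrial UMIs were kept. Doublets were removed at 0.8% per 1000 barcodes by scrublet score, since its own cut marked 1 and 5 cells in the control libraries. Cells were clustered (scanpy 1.11.5, Leiden resolution 1) on 2431 variable genes without the 9 members. Clusters were named from marker lists by a score of at least 0.75, a cut set after the clusters were seen, and 4 of 27 stayed unnamed. UMIs were summed per class and library and tested with edgeR 4.0.16 (filterByExpr, TMM, quasi-likelihood, no covariate), with DESeq2 1.42.0 as an alternative. The edgeR step was tested on simulated data first. The members, gene lists and tests were chosen with earlier results of these data known. Named by rule were all members, the wider-list genes that passed (outside neutrophils the 3 of smallest p in each class) and the 3 genes nearest to each member among those of at least 10 CPM. Standard errors come from the edgeR fits and so take in the spread between these libraries, for the differences between classes pooled over genes. Each SD is over libraries. Thinning to equal depth covers counting error only. Proteins were not analysed here, and 1 gene of the wider lists that passed in CD8 T cells is not reported here.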

Additional observations from a re-analysis of the deposited data

Results flagged for a closer look

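The response of Icam1 to liproxstatin differed between neutrophils and mononuclear phagocytes by 1.83 on the log2 scale, by a test of the difference itself (adjusted p = 0.00186, edgeR). It was higher in both treated libraries in neutrophils, higher in both also in monocytes, and overlapping in macrophages. Against NK cells the difference for Icam1 was 2.47 (adjusted p = 1.63e-11, edgeR), with Icam1 higher in both treated libraries in neutrophils and lower in both in NK cells. For Pecam1 the difference against NK cells was -1.88 (adjusted p = 0.00291, edgeR), with Pecam1 lower in both treated libraries in neutrophils and overlapping in NK cells. Both comparisons with NK cells were added after the data were seen. The p-values of these differences rest on a spread pooled over genes more than on each gene's own spread between libraries. The Icam1 difference from mononuclear phagocytes did not pass with equal cells per library. It also failed without control replicate 2, liproxstatin replicate 1 or liproxstatin replicate 2. Neither difference from NK cells passed without liproxstatin replicate 1, and that of Pecam1 also failed without control replicate 2 or liproxstatin replicate 2.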

How the results depend on the processing

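Of 849 fold changes of members under other settings, 821 kept their direction or stayed uncalled, 14 lost a call, 14 gained one and 0 called values turned; 95 changed sign while uncalled. In neutrophils 1 member was called. The count was 2 with no filter on low counts, and 0 with the replicate block (Icam1 1.88, adjusted p = 0.375, edgeR), DESeq2, equal cells per library, a second such draw and without cluster n3, the last 2 chosen after seeing the data. Leaving out 1 library gave 0 (without control replicate 2) to 2 (without control replicate 1). Over 14 settings Icam1 in neutrophils ranged from 1.13 to 2.16 and was called in 8 (adjusted p = 5.98e-10 to 0.751). In macrophages the count of 0 became 1 with no filter (Cd44) and 1 with the block (Vcam1), and was 0 to 1 with 1 library left out. In CD8 T cells it became 1 with no filter and 1 with the block, and 0 to 1 with 1 library left out, each time Cd44. In NK cells it became 1 with no filter and 0 to 1 with 1 library left out (Icam1), and in monocytes 0 to 1 (Vcam1). For the difference from mononuclear phagocytes the count of 1 became 0 with equal cells and 0 to 2 with 1 library left out, and for that from NK cells the count of 2 became 0 to 2. Equal cells per cluster, run after seeing the data in monocytes, macrophages, dendritic cells, CD8 T cells and NK cells, left each of these 5 classes with 0 members called; it was not run in neutrophils. Same-numbered libraries did not deviate together in every class (r = -0.013 to 0.169), so the numbers were not taken as pairs.

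Counts of all genes called moved more: with 1 library left out and over the other settings, neutrophils (13) had 7 to 278 and 0 to 57, monocytes (58) 5 to 513 and 12 to 399, macrophages (365) 1 to 755 and 61 to 1119, dendritic cells (13) 13 to 164 and 4 to 178, CD8 T cells (132) 103 to 494 and 58 to 424, regulatory T cells (11) 17 to 173 and 3 to 75, and NK cells (15) 1 to 461 and 5 to 197. The 2 differences between classes had 1 to 132 (8, and 4 to 42 over other settings) and 1 to 160 (32). The cause was not tested. With 1 library left out, the lone library of its group is assumed to vary like the other group.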
